A study of Arabidopsis thaliana with 26 samples.

Results

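Genes that high light had raised and that were still high after the light was lowered again were described in Arabidopsis thaliana seedlings. A gene belonged to the group when its mean level was at least 0.8 higher on a log2 scale in high light than in growth light at 48 h and at 72 h, and at least 0.8 higher in recovery than in growth light at 72 h. The genes were thus chosen by these 3 ratios. Levels were counts scaled to a library's total (CPM), averaged over 2 libraries, and 1 CPM was added to both sides of each ratio. The rule took 100 of 33602 listed genes. It took 9.83% of the 1017 genes that passed at 48 and 72 h, and the other 917 were below 0.8 in recovery. Genes that passed at 48 and 72 h are called raised below, and those 917 are called not held. Since the 48 h, 72 h and recovery libraries chose the genes, all values from them are given as description without a test. The libraries of 0.5, 6, 12 and 24 h had no part in the choice, and all tests below rest on them.

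Col-0 wild-type seedlings, 7 days old, had been kept without dark periods at 22 °C under growth light (60 µmol photons m-2 s-1). Growth light groups stayed there and high light groups were moved to 1200 µmol photons m-2 s-1, also at 22 °C, each for 0.5, 6, 12, 24, 48 or 72 h. The recovery group was returned to growth light for 14 h after the full 72 h treatment, and it has no growth light control of its own age. Each of the 13 groups has 2 libraries of polyadenylated RNA, each from 25 pooled whole seedlings, so levels are averages over roots and shoots.

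High light drives photosynthesis past its capacity and raises genes for photoprotection, protein repair and stored carbon. Many of these transcripts return within hours once light is lowered. Iron is a cofactor of the photosynthetic electron transport chain and of chlorophyll synthesis. Plants short of iron make the small basic helix-loop-helix factors bHLH38, bHLH39, bHLH100 and bHLH101, which activate iron uptake genes, while plants with ample iron make ferritins, the proteins that store it. In RNA of whole seedlings, fewer cells of a type and less RNA per cell cannot be told apart.

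The promoters of 5 members are shown as examples that hold a motif, picked for it among the genes described below: BHLH100, bHLH38 and AT4G36700, which were low in high light at 6 h and stood above their 72 h level in recovery, PUB19, which was highest at 0.5 h, and HSP17.4, a heat shock protein gene. Each is the stretch of 250 bases before the annotated gene start, read 5′ to 3′ on the gene's strand from the RefSeq TAIR10.1 genome. Capitals mark the G-box CACGTG, except in HSP17.4, where they mark the heat shock element (AGAA and TTCT with any 2 bases between). The HSP17.4 window also holds 1 G-box, left in lower case. The windows are chr2:17199455-17199704, minus strand, for BHLH100, chr3:21085246-21085495, minus strand, for bHLH38, chr4:17300368-17300617, minus strand, for AT4G36700, chr1:22198016-22198265, plus strand, for PUB19, and chr3:16984868-16985117, minus strand, for HSP17.4.
BHLH100: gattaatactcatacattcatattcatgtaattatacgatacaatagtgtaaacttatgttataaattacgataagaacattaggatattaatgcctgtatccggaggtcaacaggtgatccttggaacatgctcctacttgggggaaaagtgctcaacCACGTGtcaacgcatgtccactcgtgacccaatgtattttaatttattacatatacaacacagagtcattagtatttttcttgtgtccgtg
bHLH38: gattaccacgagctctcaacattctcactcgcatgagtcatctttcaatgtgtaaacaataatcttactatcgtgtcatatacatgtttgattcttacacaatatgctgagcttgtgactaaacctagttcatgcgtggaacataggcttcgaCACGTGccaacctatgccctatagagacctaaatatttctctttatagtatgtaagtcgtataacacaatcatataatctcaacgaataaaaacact
AT4G36700: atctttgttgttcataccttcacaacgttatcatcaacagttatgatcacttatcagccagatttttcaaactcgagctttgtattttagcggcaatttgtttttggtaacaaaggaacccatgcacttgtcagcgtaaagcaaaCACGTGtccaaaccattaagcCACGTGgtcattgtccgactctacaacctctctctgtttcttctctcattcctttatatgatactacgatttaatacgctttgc
PUB19: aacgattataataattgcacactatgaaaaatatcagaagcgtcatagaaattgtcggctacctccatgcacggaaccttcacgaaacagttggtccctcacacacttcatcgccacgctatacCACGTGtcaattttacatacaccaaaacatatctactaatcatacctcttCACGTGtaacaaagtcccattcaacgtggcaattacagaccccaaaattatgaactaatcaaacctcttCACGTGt
HSP17.4: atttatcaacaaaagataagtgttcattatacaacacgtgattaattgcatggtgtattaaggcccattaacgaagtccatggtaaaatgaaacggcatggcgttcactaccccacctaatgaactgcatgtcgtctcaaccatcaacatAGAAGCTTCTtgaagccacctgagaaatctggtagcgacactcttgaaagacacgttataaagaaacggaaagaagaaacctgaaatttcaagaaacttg

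The G-box stood in the windows of 18 of the 96 members that had one in the reference, a share of 18.8%. It stood in 14.0% of the 909 windows of genes that were raised but not held, in 7.40% of the 21013 windows of tested genes and in 5.86% of all 33047 windows. The W-box, searched as TTGACC or TTGACT, was in 35.4% of member windows, 30.7% of those not held and 28.4% of tested ones. In the same order, TGACGT was in 12.5%, 11.7% and 8.11%, the heat shock element in 1.04%, 1.65% and 1.10%, and GCCGCC in 2.08%, 1.76% and 1.94%. Motifs were searched on both strands, CACGTG and the heat shock element read the same on both, and no pair of these motifs was required to be apart. Most genes of the same patterns held no such match. The windows of bHLH39, BHLH101, FRO3, ZIF1, NAS4 and NRAMP4 have no G-box. HSP17.4 is the one member whose window matches the heat shock element in the form searched. The windows of HSP70, HSP90.1, HSP17.6A, AT1G07400 and HSFA2 do not match that form, and looser forms were not searched. A match describes the letters of the window only.

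The 100 genes differed widely in how high they were. Mean recovery levels ran from 0.983 to 606 CPM with a median of 10.5 CPM. There were 15 genes at 100 CPM or more and 27 below 5 CPM, so the weakest ones rest on few counts. The median log2 ratio was 1.73 at 48 h, 2.33 at 72 h and 1.27 in recovery. Over the 917 genes not held, the medians were 1.24, 1.25 and 0.16. All 100 genes had both recovery libraries above both 72 h growth light libraries, which the rule nearly forces, and 39.4% of all tested genes did. Of all listed genes, 3.03% passed the rule at 48 and 72 h and 0.58% passed it in recovery.

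Just inside the threshold stood AT1G13609, with a smallest ratio of 0.80, AT3G24460 and AT5G57123. Just outside stood GPX7, a glutathione peroxidase, with a recovery ratio of 0.79, CYP722A1, also at 0.79, and AT4G08867, with a 48 h ratio of 0.78. The heat map of all 100 genes orders them by their recovery level relative to 72 h of high light.

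**Figure D1:**
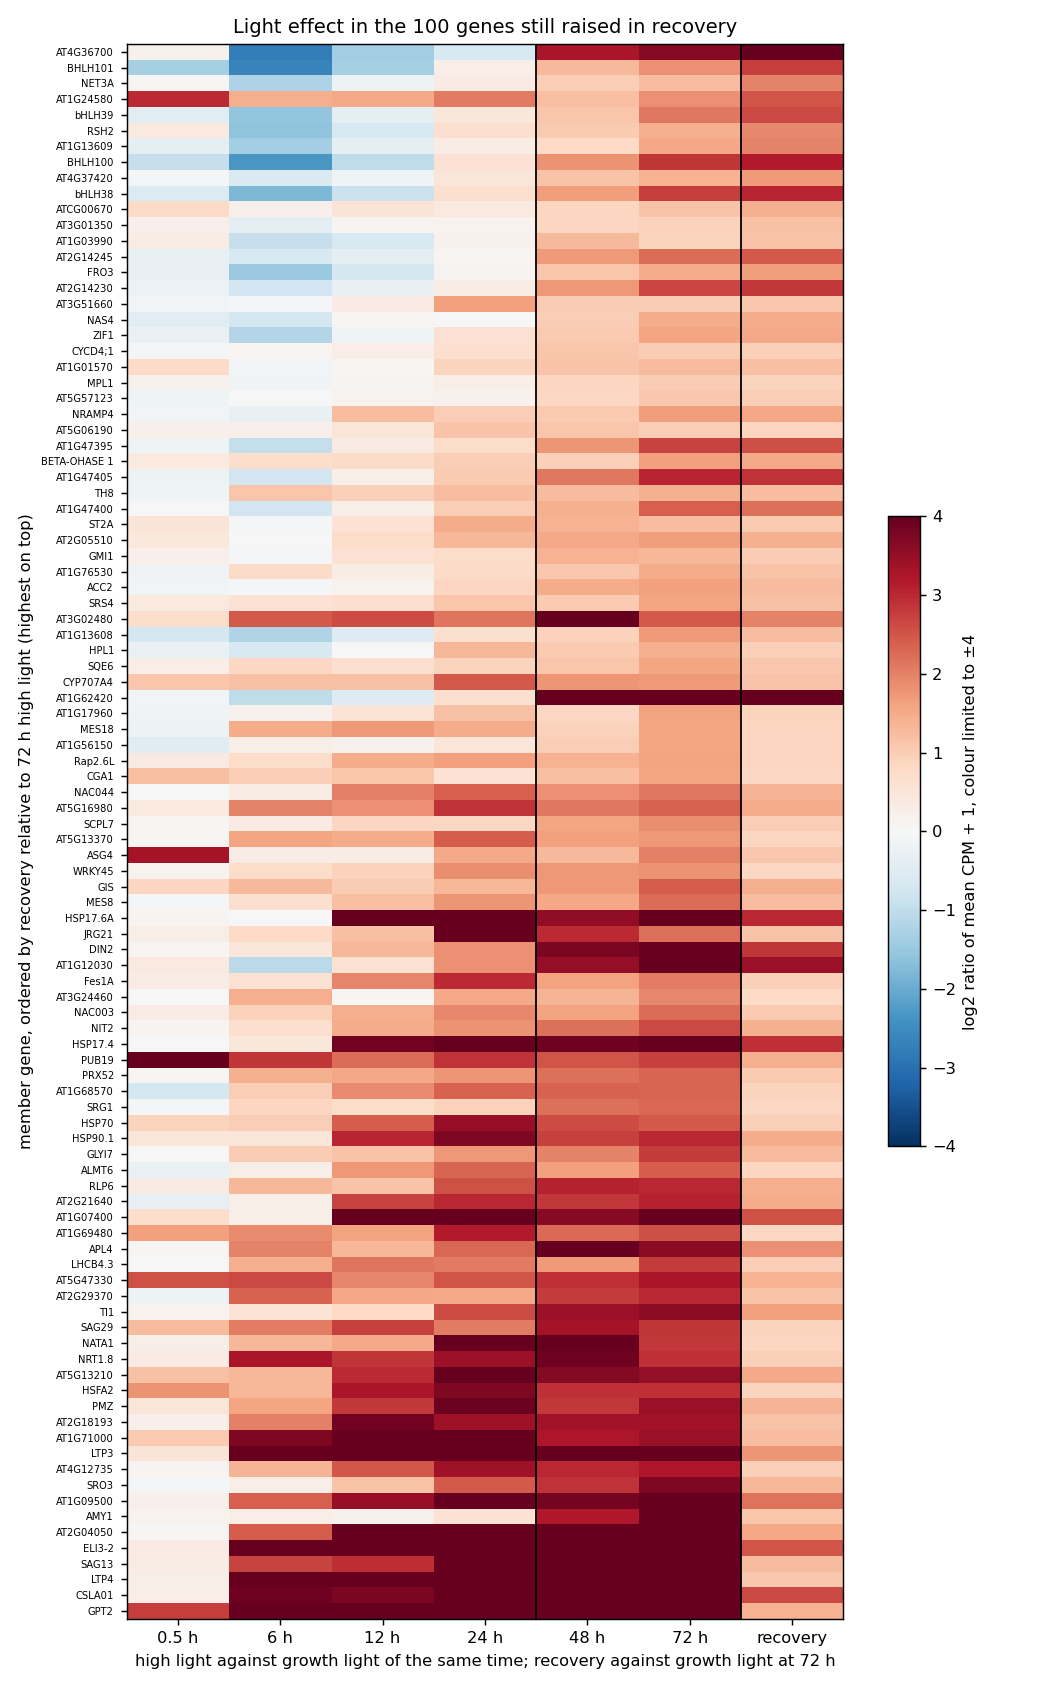
Log2 ratios of mean CPM plus 1 for the 100 genes (vertical axis) at 6 times of high light against growth light and in recovery against 72 h growth light (horizontal axis), with colour limited to 4 in either direction. The 17 genes at the top were higher in recovery than at 72 h of high light, and blue cells at 6 h gather near the top.

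Recovery levels fell into different ranges relative to high light. In 83 genes the recovery mean was below the 72 h high light mean, and in 52 of them by at least 0.8 on the log2 scale. In 17 genes it was above. Both recovery libraries lay above both 72 h high light libraries in 15 genes and below both in 73, where 32.3% and 36.4% of all tested genes did. The median difference in the members was -0.86 on the log2 scale. The rule places the recovery mean of every gene not held below its 72 h high light mean, so those genes give no comparison here.

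The libraries of the earlier times showed when the members first moved. At 0.5 h of high light 22 members were called higher than growth light and 5 lower by edgeR's quasi-likelihood test (Benjamini-Hochberg adjusted p below 0.05 over all 21449 tested genes), where 13.5% and 8.29% of all tested genes were. At 6 h 52 were higher and 24 lower, against 22.9% and 18.2%. At 12 h 68 were higher and 11 lower, against 24.1% and 21.1%. At 24 h 86 were higher and 1 lower, against 26% and 23.9%. Of the 917 genes not held, 40.6%, 78.3%, 86.0% and 95.3% were called higher at 0.5, 6, 12 and 24 h. Lower calls took 2.18%, 0.55%, 0.87% and 0.76% of them. At each time members were thus called higher less often than the other genes raised later. All 100 members passed the filter on low counts. In 16 genes the call was higher at all 4 times, in 50 it was higher at 6, 12 and 24 h, and 2 genes were called at none. The count of 5 lower genes at 0.5 h depended on the libraries, being 2 without the first high light library, 12 without the second, and 3 and 8 without the first and second growth light library.

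The 24 members called lower at 6 h were most of such genes among those raised later. Of the 917 genes not held, 718 were called higher at 6 h and 5 lower. Those 5 were MYB47, MBP1, AT3G05190, MBF1C and ABCG22. Of 29 raised genes called lower at 6 h, 82.8% were therefore members, while the members make up 9.83% of the raised genes. The share of members called lower, 24 of 100, stands near the 18.2% of all tested genes, and it is the set of later raised genes not held in which such calls were few.

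**Figure D2:**
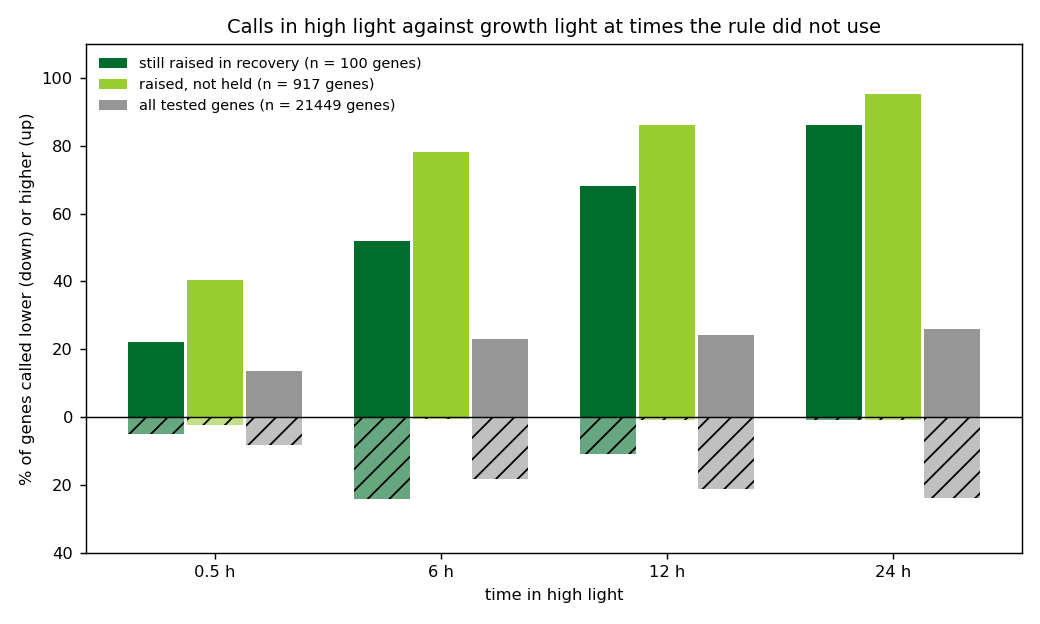
Share of genes (vertical axis, percent) called higher (upward, solid) or lower (downward, hatched) in high light against growth light at 4 times (horizontal axis), for the 100 members, the 917 raised genes not held and all 21449 tested genes. At 6 h 24 members and 5 of the genes not held were called lower.

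Among members, the call at 6 h went with the recovery level relative to 72 h high light, a description without a test. Of the 17 members above their 72 h high light level in recovery, 14 were called lower at 6 h, 1 was called higher, AT1G24580, and 2 were not called, ATCG00670 and AT3G51660. Among the 24 called lower, the median difference between recovery and 72 h high light was 0.22 on the log2 scale, with a range from -1.09 to 2.0. Among the 52 called higher, the median was -1.49, and 41 were at least 0.8 below their 72 h high light level. The 24 not called at 6 h had a median of -0.72. Recovery and 72 h values both entered the rule. The median 72 h ratio was 1.77 in members called lower at 6 h and 2.62 in those called higher. A gene further above growth light at 72 h could fall further and remain a member, and the part of this was not tested. By 24 h, 13 of the 24 lower genes were called higher, 10 were not called and 1, AT4G36700, was still lower. The light effect at 24 h was above that at 6 h in all 24 by edgeR's test of the difference, which was added after the data were seen. The 24 were picked on 6 h values that this test shares, so that count is a description. Over all members that difference was called higher in 63, over the genes not held in 39.5% and over all tested genes in 9.94%.

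**Figure D3:**
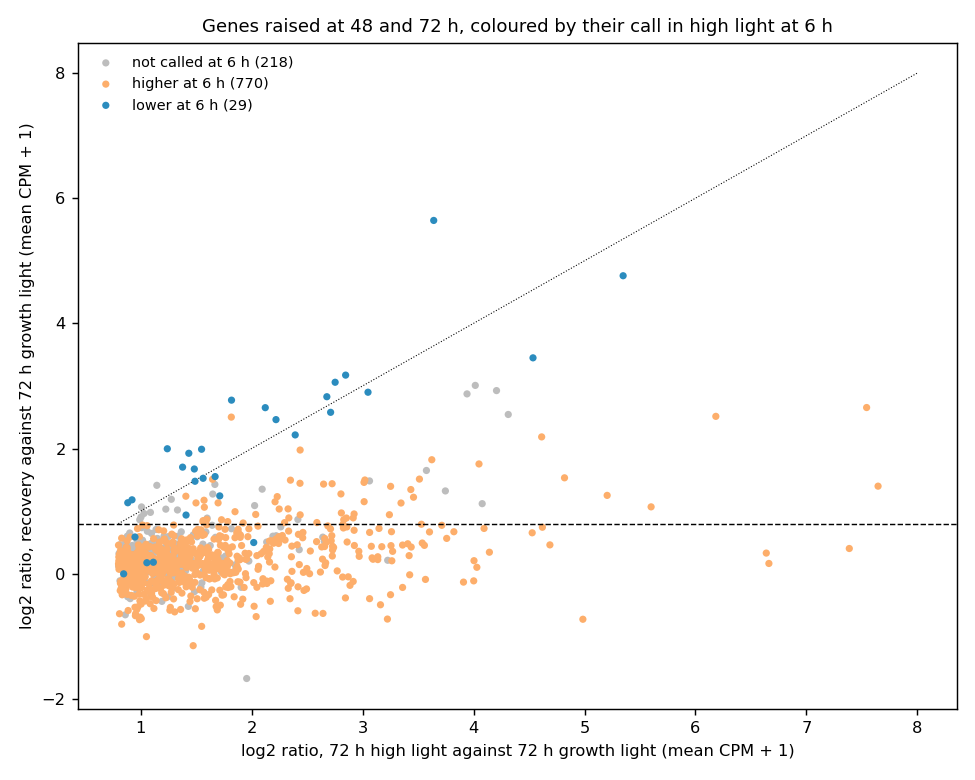
Log2 ratio in recovery (vertical axis) against that at 72 h of high light (horizontal axis), both relative to 72 h growth light, for the 1017 genes raised at 48 and 72 h, coloured by their call at 6 h. The dashed line is the threshold of 0.8 and the dotted line marks equal ratios. Of the 29 genes called lower at 6 h, 24 lie above the threshold.

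Regulators of the iron response were among the members called lower at 6 h and high later. BHLH100, a basic helix-loop-helix factor made under iron shortage, measured 120 and 141 CPM in growth light at 6 h and 28.5 and 21.5 CPM in high light. The groups did not overlap, and high light was lower by 2.38 on the log2 scale (SE 0.23, adjusted p = 2.31e-08, edgeR's quasi-likelihood test). At 24 h the growth light libraries held 94.1 and 65.5 CPM and the high light libraries 114 and 127 CPM. High light was by then the higher group, by 0.58 (SE 0.21, adjusted p = 0.0264). The growth light level itself varied, at 30.3 and 40.9 CPM at 12 h.

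The later libraries carried BHLH100 further up. At 72 h growth light held 60.2 and 72.5 CPM, high light 495 and 473 CPM, and recovery 656 and 557 CPM. Both recovery libraries stood above both high light libraries, and BHLH100 had the highest mean recovery level of all 100 genes.

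bHLH38 followed the same course, with 115 and 129 CPM in growth light and 41.9 and 27.1 CPM in high light at 6 h. It was lower by 1.82 on the log2 scale (SE 0.24, adjusted p = 1.81e-06, edgeR). In recovery it measured 476 and 396 CPM, beside 46.8 and 56.1 CPM in growth light and 349 and 356 CPM in high light at 72 h. All recovery libraries were above all others of bHLH38.

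bHLH39, a related gene beside it, was lower at 6 h by 1.60 (SE 0.19, adjusted p = 4.7e-07, edgeR). Its recovery libraries held 248 and 232 CPM, against 167 and 164 CPM at 72 h of high light and 35.0 and 39.5 CPM in growth light. How reads shared by related genes were counted is not given in the sources used here, so their split is less certain than their sum. BHLH101, of the same subgroup, held 19.0 and 22.7 CPM in growth light and 2.83 and 2.02 CPM in high light at 6 h, a difference of -3.09 (SE 0.21, adjusted p = 1.51e-10, edgeR). Its recovery libraries, at 78.6 and 64.8 CPM, were above the 36.4 and 36.6 CPM of 72 h high light. Lower calls were not confined to 6 h. At 0.5 h BHLH100 and BHLH101 were called lower by edgeR, with log2 differences of -0.92 and -1.46, and bHLH38 and bHLH39 were not called. At 12 h BHLH100, bHLH38 and BHLH101 were called lower, with -1.05, -0.90 and -1.70, and bHLH39 was not called. As in BHLH100, the growth light level of the other 3 genes was not steady and was lower at 12 h than at 6 h. At 12 h it was 23.4 and 31.3 CPM in bHLH38, 18.6 and 23.7 CPM in bHLH39, and 5.73 and 6.88 CPM in BHLH101.

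The members FRO3, ZIF1, NAS4 and NRAMP4, whose products handle metals inside the plant, were also called lower at 6 h. FRO3, a mitochondrial ferric reductase, held 238 and 211 CPM in growth light and 86.0 and 74.6 CPM in high light at 6 h. That is a difference of -1.48 (SE 0.12, adjusted p = 9.78e-10, edgeR), and recovery reached 441 and 396 CPM. ZIF1, a vacuolar transporter of the chelator nicotianamine, was lower at 6 h by 1.16 (SE 0.11, adjusted p = 2.31e-08, edgeR) and higher at 24 h by 0.59 (adjusted p = 0.00011). Its recovery libraries, 368 and 334 CPM, lay on either side of the 358 and 363 CPM of 72 h high light.

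NAS4, a nicotianamine synthase, was lower by 0.71 at 6 h (SE 0.11, adjusted p = 1.7e-05, edgeR), and its recovery libraries at 202 and 175 CPM overlapped the 178 and 202 CPM of 72 h high light. NRAMP4, which releases iron from the vacuole, was lower by 0.28 at 6 h (SE 0.11, adjusted p = 0.0429, edgeR) and higher by 0.98 at 24 h (adjusted p = 8.18e-08). Its recovery level of 216 and 209 CPM was just under the 227 and 235 CPM of 72 h high light.

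**Figure D4:**
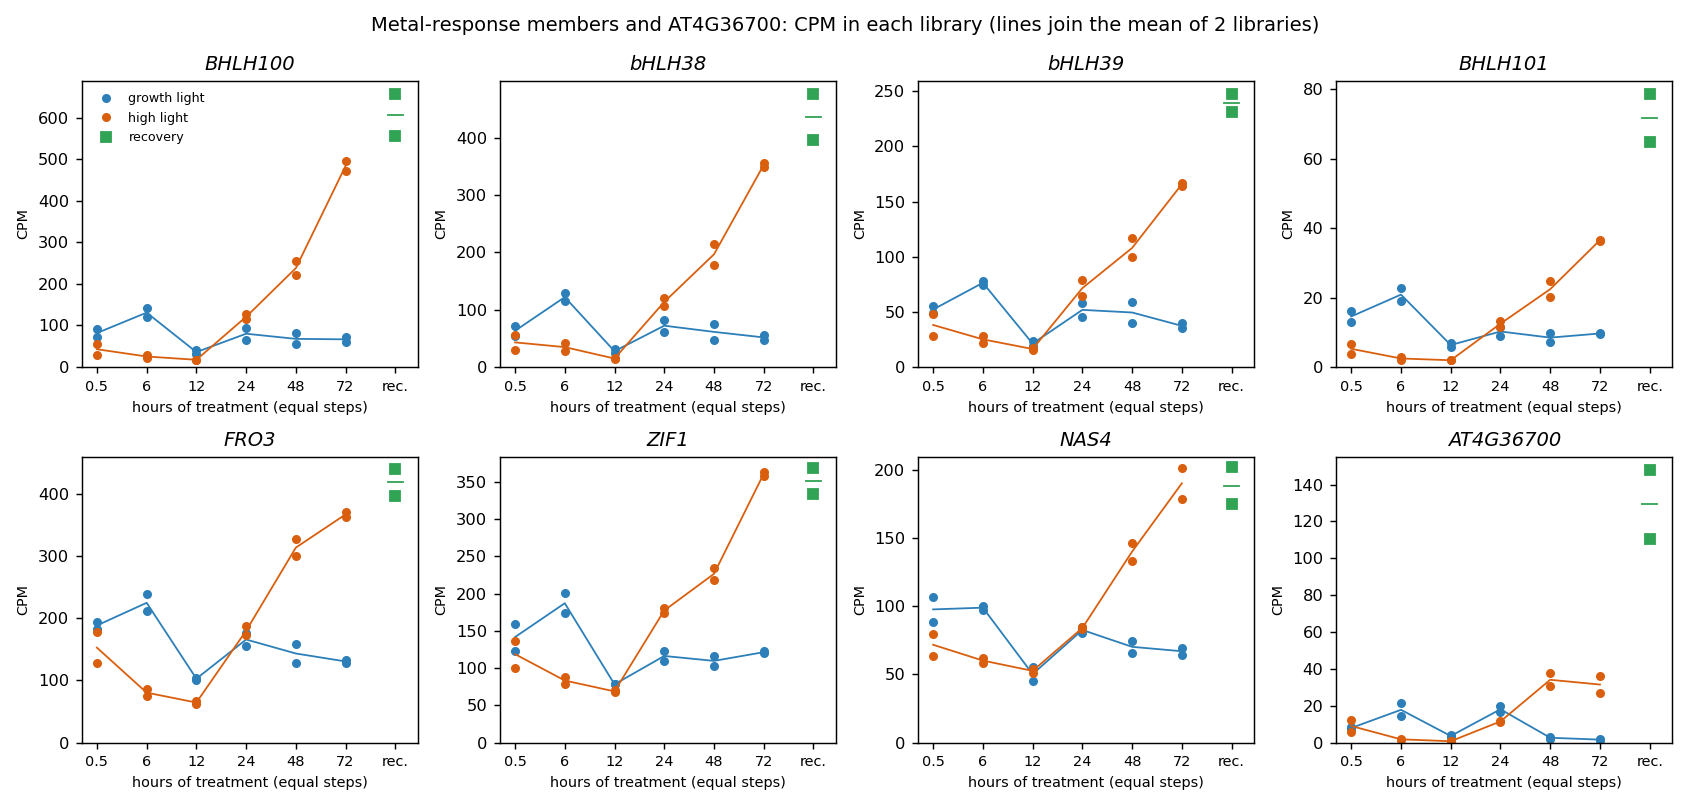
CPM in each library (vertical axis, linear) by time in equal steps (horizontal axis, hours, and recovery) for 7 genes of metal supply and AT4G36700. Lines join means of 2 libraries. In BHLH100, high light libraries are the lower group at 6 h and the higher one at 72 h, at 495 and 473 CPM, and recovery lies at 656 and 557 CPM.

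Other iron genes did not all take this course. In the iron list, 3 of 11 genes were members, 3 were called higher at 6 h and 7 lower. The 3 higher genes were the ferritins FER1, FER3 and FER4, with log2 differences of 2.37, 1.01 and 0.94 by edgeR. FER1 measured 46.2 and 35.2 CPM in growth light at 72 h, 25.2 and 23.4 CPM in high light and 11.2 and 7.16 CPM in recovery. IRT1, the iron importer of the root surface, was lower at 6 h by 1.26 and at 24 h by 1.80, and its recovery ratio was -0.66. FRO2, the root ferric reductase, was lower by 1.15 and 1.38, with a recovery ratio of -0.68. FRO6 was lower at 6 h by 3.05 and at 24 h by 4.51, with a ratio of -2.86 at 72 h and 0.28 in recovery. FRO7 was lower by 0.83 and 1.11 at these times, with ratios of -0.28 at 72 h and 0.58 in recovery.

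Of a further 23 iron genes, listed after values had been seen, 5 were members. At 6 h 12 were called lower and 5 higher, where 18.2% and 22.9% of all tested genes were. The 5 higher genes were NAS2 and NAS3, relatives of NAS4, NRAMP3, a relative of NRAMP4, YSL1, a metal chelate transporter, and NEET, an iron-sulfur protein. Their log2 differences by edgeR were 0.75, 2.90, 0.88, 1.54 and 3.39. Their recovery ratios were -0.23, -0.98, 0.43, -1.14 and -3.61. BTS, a ligase that restrains the iron response, missed membership with a 48 h ratio of 0.78 and had a recovery ratio of 1.71. PYE, an iron-responsive factor, and OPT3, a phloem iron transporter, missed it at 48 h with ratios of 0.65 and 0.52. Summed root markers ran from 2540 to 4995 CPM in growth light, from 1326 to 3364 CPM in high light and from 1585 to 1879 CPM in recovery, and all 8 had counts in each group. At 24 h 6 of these 8 were called lower by edgeR. PYK10 alone made up most of the root sum, with means of 2551 CPM in growth light and 1340 CPM in high light at 72 h and 1684 CPM in recovery. The root markers differed in recovery. Their recovery ratios were 0.05, 0.02 and 0.24 in EXPA7, RHD6 and ESB1. They were -0.60, -0.47, -0.41, -0.73 and -0.46 in PYK10, SHV2, CASP1, NRT2:1 and PRP3. Summed green shoot markers ran from 39276 to 54818, from 28516 to 48267 and from 43788 to 47993 CPM. The part of these shifts in the iron genes was not tested.

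Several members with no symbol were also called lower at 6 h. AT4G36700, annotated as a cupin family protein, had the largest recovery ratio, 5.64. It held 21.3 and 14.3 CPM in growth light at 6 h and 2.15 and 1.39 CPM in high light, a difference of -3.34 (SE 0.33, adjusted p = 2.81e-08, edgeR). At 72 h growth light held 1.47 and 1.74 CPM, high light 26.9 and 36.1 CPM and recovery 148 and 111 CPM, and no groups overlapped. Its growth light level was not steady, at 19.6 and 16.5 CPM at 24 h and 2.1 and 3.16 CPM at 48 h, so the recovery ratio rests on a low control. The call at 24 h, lower by 0.67 (adjusted p = 0.0263, edgeR), was lost with DESeq2, and without the first growth light or either high light library of 24 h.

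AT1G62420 and AT1G12030, both annotated with the domain DUF506, had recovery ratios of 4.76 and 3.45. At 6 h they were lower by 2.1 and 1.39 and at 24 h higher by 0.79 and 1.97. Unlike the 4 basic helix-loop-helix genes, they were below their 72 h high light level in recovery, with differences of -0.59 and -1.09. AT1G47395, AT1G47400 and AT1G47405, genes on chromosome 1 without a symbol in the reference, had recovery ratios of 2.58, 2.22 and 2.90. They were lower at 6 h by 0.94, 0.77 and 1.51, and the counts of such close genes may share reads. Their recovery levels differed from 72 h high light by -0.13, -0.18 and -0.15. AT1G13609 and AT1G13608, annotated as defensin-like, were lower at 6 h by 1.36 and 1.63, and their recovery levels differed from 72 h high light by 0.44 and -0.47. RSH2, a chloroplast enzyme that makes the alarmone ppGpp, held 74.8 and 73.7 CPM in growth light and 22.6 and 24.5 CPM in high light at 6 h, and 180 and 152 CPM in recovery.

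Heat shock proteins made up the list with the most members, and all of those stood below their 72 h high light level in recovery. Of the 17 genes of the list, 13 passed the rule at 48 and 72 h and 6 were members. At 24 h 16 of the 17 were called higher, where 26% of all tested genes were higher. HSP70, a chaperone of the cytosol, held 52.3 and 52.4 CPM in growth light and 668 and 531 CPM in high light at 24 h, higher by 3.5 (SE 0.18, adjusted p = 4.06e-13, edgeR). At 72 h it held 222 and 226 CPM, and in recovery 87.9 and 69.6 CPM against 41.5 and 39.5 CPM in growth light. Recovery lay between the 2 light conditions with no overlap.

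HSP90.1, another cytosolic chaperone, was higher by 3.78 at 24 h (SE 0.16, adjusted p = 2.85e-14, edgeR) and held 54.0 and 44.4 CPM in recovery, beside 15.9 and 17.6 CPM in growth light. HSP17.4, a small heat shock protein, was not called at 0.5 h or 6 h. It measured 24.1 and 11.7 CPM in high light at 12 h, 33.6 and 23.3 CPM at 24 h, 24.9 and 20.2 CPM at 72 h and 9.54 and 7.83 CPM in recovery. Every growth light library held less than the lowest of these. HSFA2, the heat shock factor that sustains such genes, held 2.61 and 2.12 CPM in recovery and 11.9 and 13.5 CPM at 72 h of high light. CLPB3, a chloroplast chaperone of the list, was no member, with a 72 h ratio of 1.57 and a recovery ratio of -0.01.

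Members with roles in the chloroplast and in sugar handling differed in how much of their level was left. LHCB4.3, a light-harvesting protein of photosystem II, held 486 and 461 CPM at 72 h of high light, 119 and 144 CPM in recovery and 66.0 and 67.4 CPM in growth light. At 24 h it was higher by 2.09 (SE 0.12, adjusted p = 2.21e-12, edgeR). BETA-OHASE 1, which hydroxylates carotenes on the way to zeaxanthin, kept more of its level, with 218 and 200 CPM at 72 h and 195 and 184 CPM in recovery. Its growth light level at 72 h was 65.5 and 66.3 CPM.

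GPT2, the glucose-6-phosphate carrier of plastids, had the widest drop, from 327 and 337 CPM at 72 h of high light to 4.05 and 2.73 CPM in recovery. It remained a member because growth light held 0.647 and 0.682 CPM. APL4, a subunit of the enzyme that makes ADP-glucose for starch, held 37.2 and 28.0 CPM in recovery and 109 and 123 CPM at 72 h of high light. CSLA01, of a family of mannan synthases, went from 416 and 422 CPM at 72 h to a mean of 13.2 CPM in recovery. DIN2, annotated as a glycosyl hydrolase, held 24.6 and 29.9 CPM in high light and 14.7 and 10.3 CPM in recovery.

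**Figure D5:**
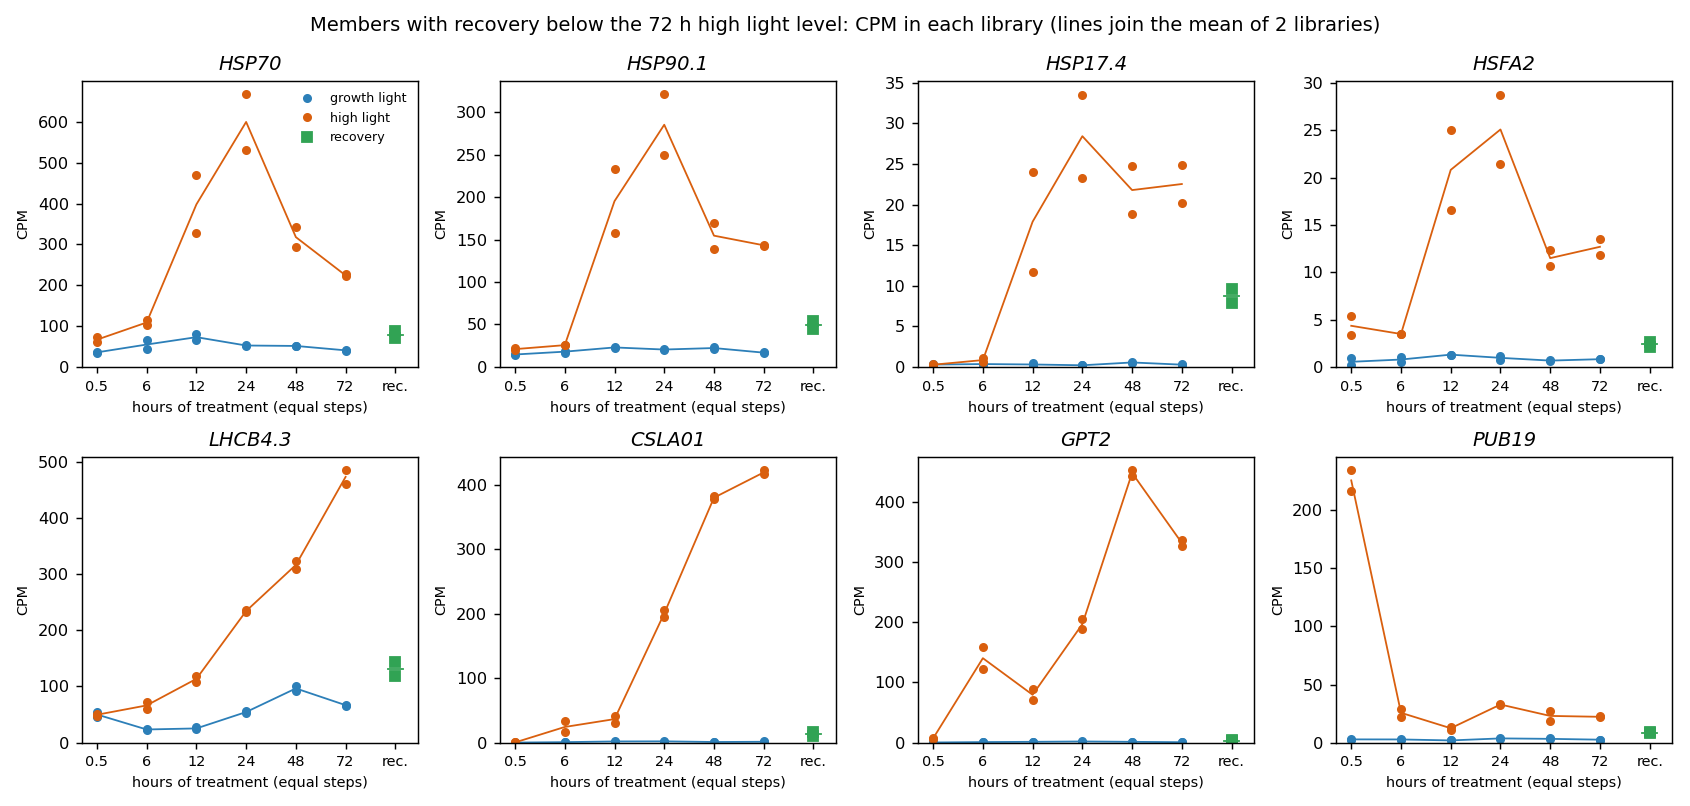
CPM in each library (vertical axis, linear) by time in equal steps (horizontal axis, hours, and recovery) for 8 members that stood lower in recovery than at 72 h of high light. Lines join means of 2 libraries. HSP70 peaks at 24 h with 668 and 531 CPM, and PUB19 at 0.5 h with 217 and 235 CPM.

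A few members were raised at once. PUB19, a U-box ubiquitin ligase, held 3.48 and 2.05 CPM in growth light and 217 and 235 CPM in high light at 0.5 h, higher by 6.37 (SE 0.20, adjusted p = 9.16e-16, edgeR). At 24 h it held 32.7 and 32.9 CPM, and its light effect was smaller than at 0.5 h by 3.21 (adjusted p = 7.26e-08). In recovery it measured 8.82 and 8.19 CPM, above every growth light library. ASG4, annotated as a homeodomain-like protein, held 84.8 and 82.4 CPM in high light and 7.45 and 7.44 CPM in growth light at 0.5 h. It was not called at 6 h (log2 difference 0.34, adjusted p = 0.0782, edgeR) and was called higher again at 24 h, by 1.61.

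AT1G24580, annotated as a RING/U-box protein, was higher at 0.5 h by 3.09 and at 24 h by 2.17. It was the one gene called higher at 6 h whose recovery level, 23.8 and 22.8 CPM, was above that of 72 h high light, 15.0 and 13.3 CPM. AT5G47330, an alpha/beta hydrolase, was higher by 3.66 at 0.5 h and by 3.30 at 24 h. AT1G68570, of the major facilitator family, was lower by 0.72 at 0.5 h and higher by 2.37 at 24 h.

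Some genes were near absent in growth light, so their ratios rest on few counts. NATA1, an N-acetyltransferase, had 3823 counts in high light at 24 h and 3 in growth light, a ratio of 1265 with an exact Poisson 95% interval from 432.6 to 6138. ELI3-2, of the cinnamyl alcohol dehydrogenase family, had 6463 and 2 counts at 24 h, a ratio of 3208 with an interval from 887.8 to 26500 in the libraries of a time the rule did not use. In recovery it had 159 counts and in growth light at 72 h 2. AT1G71000, annotated as a DnaJ-domain chaperone, had 44 counts in recovery and 1 in growth light at 72 h, values by which it was chosen. These intervals cover counting error only. SAG13, a gene known from senescing leaves, held 73.5 and 60.9 CPM at 72 h of high light and 2.81 and 4.01 CPM in recovery. SAG29, a sugar transporter gene also known from senescence, went from 39.8 and 35.4 CPM to 10.4 and 7.41 CPM. The lipid transfer protein genes LTP3 and LTP4 stood at 21.2 and 30.6 CPM and at 2.68 and 3.34 CPM in recovery. AT2G21640, annotated as a marker of oxidative stress, held 8.62 and 6.80 CPM in recovery.

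The lists differed in how many of their raised genes were members, and over all raised genes the share was 9.83%. Of 23 lists, 9 had members and 14 had none. Of 21 flavonoid and anthocyanin enzymes 20 passed the rule at 48 and 72 h and 0 were members, and of 18 glutathione S-transferases 10 passed and 0 were members. Of 19 genes of abscisic acid and dehydration 15 passed and 2 were members, LTP3 and LTP4. Senescence and starch and sugar had 2 members each, of 3 and 8 genes that passed. The lists of jasmonate, lignin, photoprotection and mitochondrial stress had 1 member each, of 10, 2, 5 and 8 genes that passed. In the heat shock list 6 of 13 were members, and in the iron list 3 of 3. The lists hold few genes, and whether any list differs from the others was not tested. Members in no list numbered 81.

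Growth light libraries show what changed without high light, and only 0.5 against 24 h was tested. Between those times 5 members were called higher and 0 lower by edgeR, where 2.14% and 2.57% of all tested genes were. The 5 were AT4G36700, AT1G62420, AT1G12030, GPT2 and SRG1. At an unadjusted p below 0.05, 8 were lower, and DESeq2 called 9 higher and 1 lower. The count was 1 higher without the second 0.5 h growth light library and 3 without the second of 24 h. With growth light at 48 h as the control of recovery the rule took 110 genes, 86 of them shared with the 100, so 14 members depend on the 72 h control.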

How the data were processed

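RNA of whole seedlings was sequenced in 26 libraries, and the deposited values are whole-number counts per gene without normalization. The tools named by the submitters' processing notes are TopHat2 (2.1.1), HTSeq (0.6.0) and edgeR, and the build is TAIR10, with no role stated. Per the labels' protocols the library kit keeps strand, and whether counting used it is not given in the sources used here, so overlapping genes and near copies are less certain. Library totals ran from 13637677 to 29697279 counts. A floor of 3 counts over a group stood in for 0.

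Levels are CPM by library total. Tests used edgeR 4.0.16 in R 4.3.3 (filterByExpr with a minimum count of 10, TMM, 1 mean per group over all 26 libraries, quasi-likelihood test, adjusted over 21449 genes). DESeq2 1.42.0, other scalings and filters, a replicate block and left-out libraries were alternatives. The code was tested on simulated data. Replicates are not stated to be separate cultures, and p-values reflect spread between these libraries, which may be technical. Gene IDs were matched to RefSeq TAIR10.1 (32835 of 33602 matched), which gave symbols, products and promoter windows.

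Members and lists were chosen with earlier results of these data known. Named genes are, by rule, up to 4 members of each list by recovery level, the 10 highest and the 10 with the largest ratio in recovery, the largest called changes at 24 and 0.5 h and between them, and the genes next to the threshold. Other genes named were chosen after their values were seen.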

Additional observations from a re-analysis of the deposited data

Results flagged for a closer look

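The light effect differed between times in most members by edgeR's quasi-likelihood test of the difference. Between 0.5 and 24 h it was larger at 24 h in 65 members and smaller in 4, where 14.9% and 17.5% of all tested genes differed. Between 6 and 24 h it was larger at 24 h in 63 members and smaller in 0, where 9.94% and 12.7% of all tested genes differed. For the 0, 3 members were smaller at an unadjusted p below 0.05, and DESeq2 called 1. Of the 917 genes raised but not held, the light effect was larger at 24 h than at 0.5 h in 59.9% and smaller in 6.22%. Against 6 h it was larger at 24 h in 39.5% of them and smaller in 4.91%.

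The widest gains from 0.5 to 24 h, on the log2 scale, were 7.18 in HSP17.4, 6.45 in HSP17.6A, 5.53 in AT2G04050, 5.29 in JRG21 and 5.11 in AT1G09500. Losses were -3.21 in PUB19, -1.88 in ASG4 and -0.92 in AT1G24580.

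Of the genes called lower at 6 h and higher at 24 h, the iron regulators gained 2.96 in BHLH100, 2.46 in bHLH38 and 2.06 in bHLH39. The transporter genes ZIF1 and NRAMP4 gained 1.75 and 1.26. AT1G12030 gained 3.36, AT1G62420 2.89, AT1G47405 3.02, AT1G47400 1.76 and AT1G47395 1.68. AT1G13608 gained 2.48, RSH2 2.32 and HPL1, a hydroperoxide lyase gene, 2.03. These genes were picked on calls at both times, and the test between 6 and 24 h was chosen after seeing the data.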

How the results depend on the processing

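Member counts at 6, 12 and 24 h stayed within 1.5 times under every alternative run, except the single lower gene at 24 h, which DESeq2 did not call (0). With each library left out in turn, the members called higher ran from 18 to 23 at 0.5 h, 49 to 53 at 6 h, 63 to 68 at 12 h and 81 to 86 at 24 h. Those called lower ran from 2 to 12, 19 to 24, 8 to 12 and 0 to 1, where the single lower gene at 24 h was lost without 1 growth light or either high light library of that time. The differences between 24 and 0.5 h ran from 55 to 68 higher and 3 to 5 lower, those between 24 and 6 h from 54 to 64 and 0 to 1, and growth light calls from 1 to 7 and 0 to 3. Lower calls at 0.5 h were 11 with no filter and 2 with the compared groups alone. Lower differences between 24 and 6 h were 1 with DESeq2, 3 with no filter and 1 with the compared groups alone. Growth light calls were 9 higher and 1 lower with DESeq2, 17 and 5 with no filter, 1 higher with the compared groups alone and 1 lower with at least 1 CPM in 2 libraries. The cause of these shifts was not tested.

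The rule took 66 genes at a threshold of 1, 139 at 0.7, 147 with a pseudocount of 0.5, 71 with 2 and 88 with TMM scaling. With the first replicates alone it took 132 and with the second alone 93, and leaving out 1 library gave 90 to 118, so the range over left-out libraries was 90 to 132. For named genes, 7506 comparisons under alternatives kept their call, 94 lost it, 85 gained it and none reversed. Deviations of the same replicate number in growth and high light had correlations of -0.15, -0.22, -0.19 and -0.02 at the 4 times, so no pairing was used in the main test. Over all 78 pairs of groups the correlations ran from -0.23 to 0.29 with a median of 0.002, and 12 were above 0.1. Whether libraries of the same number were handled together was not tested. The replicate block gave 23 members lower at 6 h in place of 24 and 67 higher at 12 h in place of 68. The crossed pairing, added after seeing the data, gave 24 and 68. Depth limits the 27 members below 5 CPM in recovery.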
